A study of Mus musculus with 6 samples.

Results

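Liver plasma protein genes were examined in RNA from mouse kidney. They are the 10 genes Alb, Ttr, Ahsg, Apoh, Apoa1, Apoa2, Apoc3, Fga, Fgb and Fgg, chosen by name as plasma proteins made by hepatocytes, and all 10 were found among the 20138 genes of the authors' deposited table. They were proposed with earlier results of these data known, so their values are a description and no test over them is given. Both groups are kidneys at postnatal day 35 from mice with floxed Pkd2 and a Cre transgene driven by the Pkhd1 promoter (Pkhd1Cre; Pkd2 F/F), which is active mainly in tubule epithelium. The 3 animals called Pkd2-KO here carry these alleles only, and the 3 called Pkd2-miR-214-KO also carry the allele miR-214null. Both groups carry the Pkd2 deletion, so the comparison is between 2 disease models and includes no unaffected kidneys. The labels give no sex, litter or perfusion of the animals, and nothing says how organs next to the kidney were trimmed away. Xist, the RNA of the inactive X chromosome in female cells, differed strongly between the groups (given below). Sex may therefore be mixed with genotype in every fold.

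The table holds 1 fitted log2 fold, mean expression, likelihood ratio, p-value and adjusted p-value per gene, and values per library were not analysed here. Folds are Pkd2-miR-214-KO over Pkd2-KO. That direction was read from the deleted gene Mir214 (-7.62 on the log2 scale in the authors' deposited table), so Mir214 is no separate check on which group is which. Pkd2, deleted in both groups, had -0.11 (-0.55 to 0.33) in the authors' deposited table. The errors given are approximate standard errors (SE), obtained as the absolute log2 fold over the square root of the likelihood ratio, which is poor for low counts. Expression is given as CPM, read counts scaled to a common library size, and sequencing depth is unknown. The p-values measure the spread between 3 and 3 kidneys, each from its own animal per the series text. A rise in 1 animal and a rise in all 3 cannot be told apart from these values.

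Hepatocytes secrete most proteins of blood plasma, and their mRNAs are among the most abundant in liver. Factors of the HNF4 and C/EBP families are among those that drive these genes in liver, and HNF4 factors are also active in kidney tubules. Kidney is not a main source of albumin, but the proximal tubule takes up filtered albumin through the receptors megalin and cubilin, which brings in protein and not mRNA. Fibrinogen chains and some other acute-phase genes are known to be transcribed in injured tubules as well as in liver.

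Upstream sequence is shown for Alb, Apoa2, Fgb and Fgg, the members whose RefSeq start gives 250 bases wholly before the gene as annotated in GENCODE M21, to set genes of large and of small fold side by side. Each run ends just before the RefSeq start on GRCm38.p6, the assembly of mm10, reads 5′ to 3′ on the gene's strand, and has GTTAAT, a motif known from liver promoters, in capitals on either strand (ATTAAC on the other).
Alb, chr5:90460620-90460869, plus strand: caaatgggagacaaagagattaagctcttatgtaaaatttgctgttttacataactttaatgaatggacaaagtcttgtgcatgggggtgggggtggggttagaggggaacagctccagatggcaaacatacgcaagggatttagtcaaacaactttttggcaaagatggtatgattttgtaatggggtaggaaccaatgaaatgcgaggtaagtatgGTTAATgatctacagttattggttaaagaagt
Apoa2, chr1:171224804-171225053, plus strand: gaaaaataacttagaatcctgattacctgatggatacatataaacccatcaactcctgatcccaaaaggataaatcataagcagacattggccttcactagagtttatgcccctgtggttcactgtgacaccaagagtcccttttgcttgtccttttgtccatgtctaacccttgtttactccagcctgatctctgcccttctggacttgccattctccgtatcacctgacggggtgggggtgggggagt
Fgb, chr3:83049864-83050113, minus strand: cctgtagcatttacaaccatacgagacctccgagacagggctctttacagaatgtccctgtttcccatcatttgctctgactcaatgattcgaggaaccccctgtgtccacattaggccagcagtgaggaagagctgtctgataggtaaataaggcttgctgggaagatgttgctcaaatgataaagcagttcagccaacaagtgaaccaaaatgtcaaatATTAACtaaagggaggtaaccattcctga
Fgg, chr3:83007474-83007723, plus strand: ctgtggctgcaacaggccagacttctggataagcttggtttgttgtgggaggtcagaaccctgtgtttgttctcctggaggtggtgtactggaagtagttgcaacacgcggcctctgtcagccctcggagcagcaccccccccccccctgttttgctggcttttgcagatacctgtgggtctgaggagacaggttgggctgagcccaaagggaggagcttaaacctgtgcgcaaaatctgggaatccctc
GTTAAT stands 32 bases before the start in Alb and, on the other strand, 29 bases before it in Fgb, and is in neither of the other windows printed. Among the 8 members with an entry in the RefSeq table it was found in 3, Alb, Fga and Fgb, against 6.43% of all 32851 windows of the same length. The C/EBP motif TTGCNNAA, searched on both strands, was found in 4 of the 8 (Alb, Ahsg, Fga and Fgb), against 9.56% of all windows, with no overlap with GTTAAT. Apoa2 has a second RefSeq window, upstream of the one printed, that holds the motif, and the printed one does not. Thus GTTAAT occurs both in Alb, the gene with a fold of 6.64 on the log2 scale in the authors' deposited table, and in 2 of the fibrinogen genes, with folds near 1. A match is a description of letters and shows no binding.

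All 10 members had a positive log2 fold in the authors' deposited table, against 49.8% of all genes, and their median was 2.53 against 0.00 for all genes. None of the 10 passed an adjusted p under 0.05 in the authors' likelihood ratio test with edgeR, against 0.104% of all genes called as higher in Pkd2-miR-214-KO. At an unadjusted p under 0.05, 8 of the 10 were higher in the authors' deposited table, against a background of 3.10%. Counted in both directions, 0.124% of all genes passed the adjusted and 4.82% the unadjusted threshold. A log2 fold of at least 1 was reached by 7 members (background 6.77%) and of at least 4 by 4 members (background 0.581%) in the authors' deposited table. In bulk kidney RNA, more cells of a type and more RNA per cell cannot be told apart. Alb, Ahsg, Apoa1 and Apoh had folds from 4.95 to 6.64, Apoa2 and Apoc3 lay between, and the fibrinogen chains and Ttr had folds from 0.35 to 1.17 in the authors' deposited table. Of the 45 pairs of members, 16 had approximate 95% intervals that did not overlap, and each such pair joined Ttr or a fibrinogen chain to one of the 5 genes Alb, Ahsg, Apoa1, Apoh and Apoa2. These pairs share the same 6 libraries, and the differences between members were not tested.

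**Figure D1:**
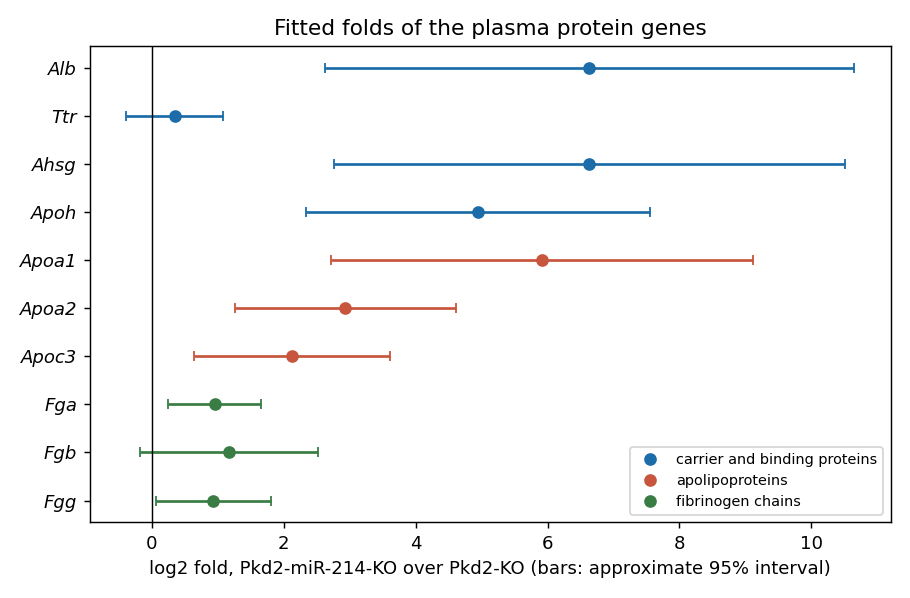
Log2 fold of each plasma protein gene in the authors' deposited table (x axis, Pkd2-miR-214-KO over Pkd2-KO), with bars for the approximate 95% interval and colours for the 3 roles. The intervals of Ttr and Fgb include 0, and those of Alb, Ahsg, Apoa1 and Apoh start above 2.

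Carrier and binding proteins held both the highest and the lowest fold of the members. Alb encodes albumin, the most abundant plasma protein, and lies on chromosome 5 from 90460897 to 90476602 (GENCODE M21, plus strand, 15 exons). Its mean expression was 7.11 log2 CPM and its log2 fold 6.64 ± 2.05 (SE), with an approximate 95% interval of 2.62 to 10.65 and an adjusted p of 0.226 in the authors' deposited table. That is a 99.5-fold difference whose interval runs from 6.16-fold to 1608-fold, so its size is poorly fixed. Ahsg encodes fetuin-A, which keeps calcium phosphate from precipitating in plasma, and lies on chromosome 16 (22891277 to 22899449). Its log2 fold of 6.64 ± 1.98 was nearly that of Alb, at a lower mean of 4.63 log2 CPM (adjusted p = 0.206, the authors' deposited table). Apoh encodes beta-2-glycoprotein I, a phospholipid-binding plasma protein, on chromosome 11 (108343354 to 108414396). It had the smallest p-value of the 10 (0.000199, adjusted p = 0.113) with a log2 fold of 4.95 ± 1.33 and a mean of 2.83 CPM in the authors' deposited table.

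Ttr encodes transthyretin, the carrier of thyroxine and of retinol-binding protein, and lies on chromosome 18 (20665280 to 20674321). It had 0.35 ± 0.38 on the log2 scale, with interval bounds of -0.39 and 1.09 (adjusted p = 1), at a mean of 5.98 log2 CPM in the authors' deposited table. The upper end of that interval lies below the lower ends of Alb, Ahsg, Apoh and Apoa1, and below the 1.26 of Apoa2. Ttr had the lowest fold of the members, although its mean expression was among their 4 highest.

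Apolipoprotein genes lay between these extremes. Apoa1, which encodes the main protein of high-density lipoprotein, was at 3.19 log2 CPM and had 5.92 ± 1.63 (adjusted p = 0.136) in the authors' deposited table. Apoa2, which encodes the second protein of the same particle, had 2.93 ± 0.85 (adjusted p = 0.196) at 2.38 log2 CPM in the authors' deposited table. Apoc3, which encodes an inhibitor of lipoprotein lipase, had 2.13 ± 0.76 (adjusted p = 0.427) at 1.78 log2 CPM in the authors' deposited table. Apoa1 (46228580 to 46230466, plus strand) and Apoc3 (46232933 to 46235636, minus strand) are neighbours on chromosome 9, and Apoa2 lies on chromosome 1 (171225054 to 171226379). The approximate intervals of the neighbours overlap, from 2.72 to 9.12 for Apoa1 and from 0.64 to 3.61 for Apoc3.

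Fibrinogen chains form the clot and are encoded by 3 genes at 1 locus of chromosome 3, Fgg (83007724 to 83015049), Fga (83026076 to 83033627) and Fgb (83040141 to 83049863). Fga had a log2 fold of 0.95 ± 0.36 (p = 0.00846, adjusted p = 0.555) at a mean of 6.45 log2 CPM in the authors' deposited table. Fgg had 0.93 ± 0.45 (p = 0.0375, adjusted p = 0.951) at 6.05 log2 CPM in the authors' deposited table. Fgb had 1.17 ± 0.69 (p = 0.0890, adjusted p = 1) at 4.26 log2 CPM in the authors' deposited table. The folds of the 3 chains lay closer together than the SE of any of them. Compared with the 500 genes nearest in mean expression, 0 exceeded the fold of Fga, 1 that of Fgb and 4 that of Fgg.

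**Figure D2:**
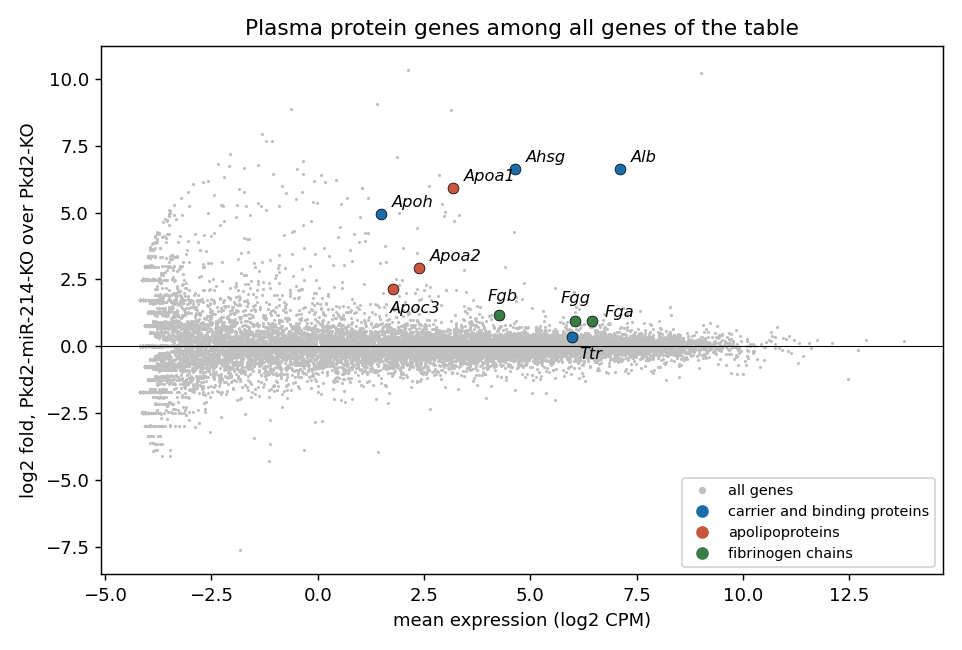
Log2 fold (y axis) against mean log2 CPM (x axis) of all 20138 genes in the authors' deposited table (grey), with the 10 plasma protein genes labelled. Alb (7.11 log2 CPM) and Ahsg (4.63 log2 CPM) stand above each of the 500 genes nearest in mean expression, while Ttr lies inside the grey band.

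A level in each genotype was implied by the mean and the fold, solved for 2 genotypes whose arithmetic mean is the deposited mean. These levels are not measurements of single kidneys. The ranges given with them follow from the interval of the fold at a fixed mean, and leave out the error of that mean. Alb came to 2.76 CPM in Pkd2-KO (range 0.172 to 38.7) and 274.3 CPM in Pkd2-miR-214-KO (range 238.3 to 276.9). Ahsg came to 0.493 and 49.1 CPM, Apoa1 to 0.297 and 17.9 CPM, and Apoh to 0.177 and 5.48 CPM, in the same order of genotypes. The ranges in Pkd2-KO reached 6.36 CPM for Ahsg, 2.41 CPM for Apoa1 and 0.932 CPM for Apoh. With the deposited mean read as a geometric mean, these levels in Pkd2-KO were 13.9 CPM for Alb, 2.48 for Ahsg, 1.17 for Apoa1 and 0.509 for Apoh, so low levels there are poorly fixed. Whether the Pkd2-KO libraries hold any reads of the latter 3 genes is not shown by the table, and fitted folds of genes near 0 depend on the prior count. Apoa2 came to 1.21 and 9.20 CPM, and Apoc3 to 1.28 and 5.59 CPM.

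The other 4 members were present at clear levels in Pkd2-KO. Fga came to 59.5 CPM in Pkd2-KO and 115.0 CPM in Pkd2-miR-214-KO, Fgg to 45.6 and 87.1 CPM, and Fgb to 11.8 and 26.4 CPM. Ttr came to 55.5 and 70.6 CPM, with ranges of 40.4 to 71.6 and 54.5 to 85.7 CPM that overlap. As a difference, Alb was 271.5 CPM higher, Fga 55.5 CPM, Ahsg 48.6 CPM and Fgg 41.5 CPM, and with the geometric mean these differences were 1368 CPM for Alb, 58.6 for Fga, 244.6 for Ahsg and 43.7 for Fgg. The differences of the fibrinogen chains thus depended less on that choice than those of Alb and Ahsg. The smallest differences were those of Apoa2 (7.99 CPM), Apoh (5.30 CPM) and Apoc3 (4.31 CPM). Of the summed implied CPM of the 10 genes, Alb made up 1.54% in Pkd2-KO and 41.5% in Pkd2-miR-214-KO, while the share of Ttr was 31.1% and 10.7%. With the geometric mean the shares of Alb were 6.91% and 67.4%, and those of Ttr 27.8% and 3.47%.

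**Figure D3:**
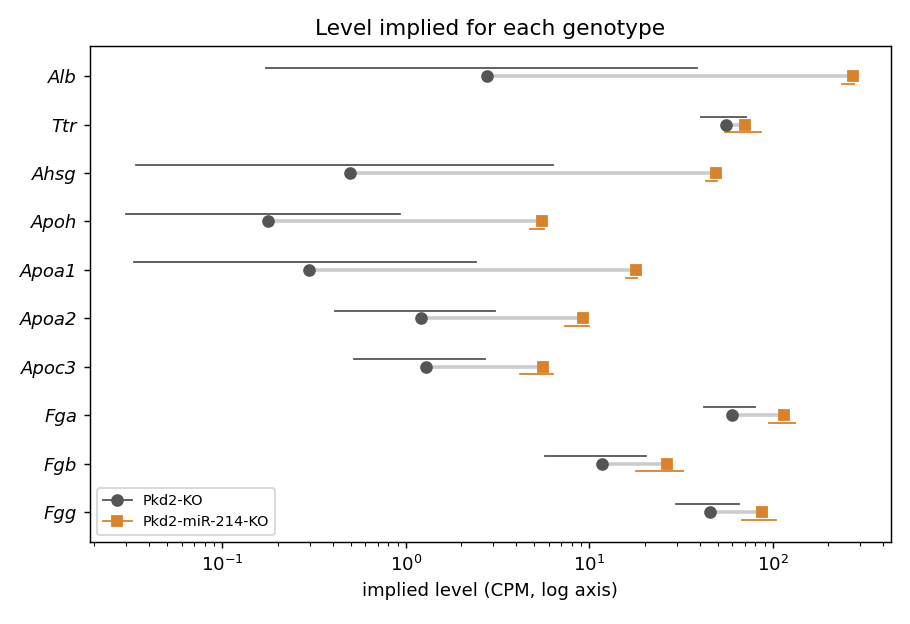
Level implied for each genotype (x axis, CPM on a log axis) of the 10 plasma protein genes, with grey circles for Pkd2-KO and orange squares for Pkd2-miR-214-KO. Thin lines are the ranges that the approximate 95% interval of the fold allows at a fixed mean, and the long ranges in Pkd2-KO are those of Alb, Ahsg, Apoa1 and Apoh.

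Per kilobase of the longest protein-coding transcript, the order of the implied levels differed between the genotypes. In Pkd2-KO, Ttr came first (46.8 CPM per kilobase), followed by Fgg (26.2), Fga (23.0), Fgb (3.09), Apoa2 (2.33), Apoc3 (1.81), Alb (1.36), Ahsg (0.332), Apoa1 (0.287) and Apoh (0.149). Of the 9 neighbouring pairs in that order, 8 had overlapping ranges, and the step from Fga to Fgb was the exception. In Pkd2-miR-214-KO, Alb came first (134.8 CPM per kilobase), followed by Ttr (59.5), Fgg (50.04), Fga (44.5), Ahsg (33.1), Apoa2 (17.8), Apoa1 (17.3), Apoc3 (7.88), Fgb (6.94) and Apoh (4.61). There the ranges of 5 of 9 neighbouring pairs overlapped, and those of Alb and Ttr did not. At a fixed mean, a large fold gives a narrow range in Pkd2-miR-214-KO whatever the spread between animals. These overlaps therefore do not establish the order. Alb thus had place 7 of 10 in Pkd2-KO and place 1 in Pkd2-miR-214-KO. With the geometric mean it had place 4 and place 1, and Ahsg and Apoa1 came before Ttr in Pkd2-miR-214-KO, so the middle of either order is not fixed. Ttr, Fgg and Fga were the first 3 in Pkd2-KO under both readings of the mean. Fgb shows how length enters, since its 3.81 kilobase transcript is the longest of the 10 and lowers its level per length.

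The error of the fold was large for every member in relation to its expression. Among the 500 genes nearest in mean expression, 0 had a larger approximate SE than Alb, Ahsg or Apoa1, 2 had a larger one than Apoh and 1 than Fgb. The SE of Alb was 9.35 times the median of its 500 neighbours (0.22), that of Ahsg 8.43 times and that of Apoa1 5.36 times. For the others it was between 1.72 times (Fga) and 3.08 times (Apoh) that median, and 12 neighbours had a larger SE than Ttr. The SE combines the spread between animals with counting error in the lower genotype, and the table does not show which animals were high.

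**Figure D4:**
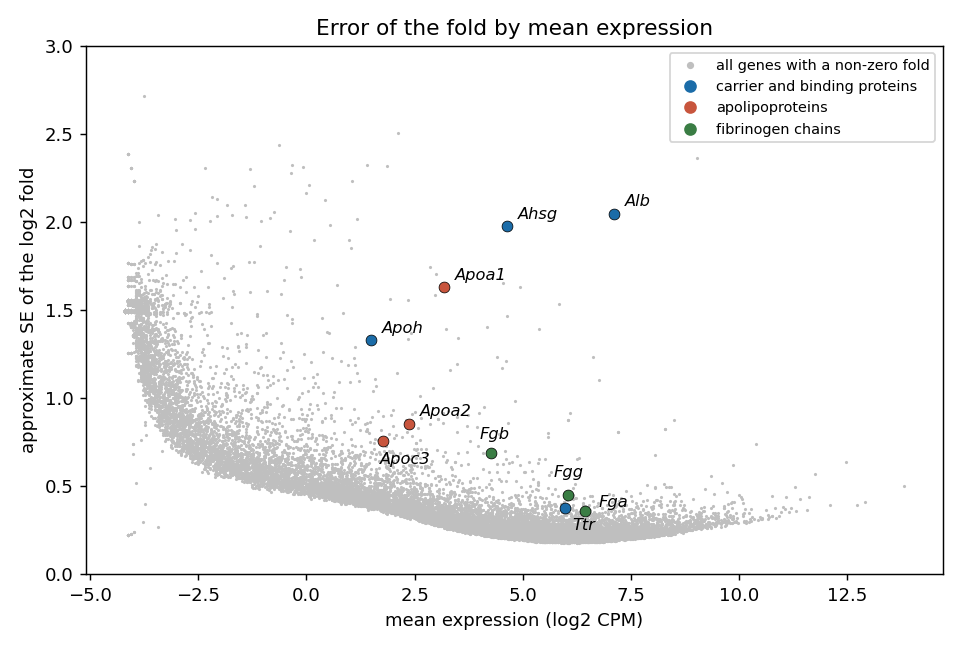
Approximate SE of the log2 fold (y axis) against mean log2 CPM (x axis) for the genes of the authors' deposited table with a fold other than 0 (grey), with the plasma protein genes labelled. Alb (2.05) and Ahsg (1.98) lie far above genes of similar expression, and 8 genes with an SE above 3 fall outside the axis.

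Neighbouring genes were read for each locus, 2 on either side among the genes of the table. All 28 such genes had log2 folds from -0.83 to 6.91 in the authors' deposited table, with a smallest p-value of 0.00141 in the authors' likelihood ratio test. Set apart without a rule fixed beforehand were 7 of them. These were Afp, Afm, Fetub, Hrg, Apoa4 and Apoa5, of plasma proteins or the albumin family, and the hepatocyte factor Nr1i3. The other 21 had log2 folds from -0.38 to 0.43 in the authors' deposited table, and their smallest p-value was 0.151. Next to Alb lie Afp (alpha-fetoprotein) and Afm (afamin, a vitamin E carrier), both of the albumin gene family. Afp had -0.49 ± 0.51 at a low mean of -0.17 log2 CPM in the authors' deposited table. Afm had -0.83 ± 0.44 at 5.39 log2 CPM in the authors' deposited table, with a clear implied level of 53.6 CPM in Pkd2-KO. Next to Ahsg, Fetub (fetuin-B) had 0.69 ± 0.48 and Hrg (histidine-rich glycoprotein) 5.91 ± 1.85 in the authors' deposited table. Next to Apoa1 and Apoc3, Apoa4 had 1.37 ± 0.63 and Apoa5 6.91 ± 2.33 in the authors' deposited table, and Nr1i3 beside Apoa2 had 1.40 ± 0.66. Thus 2 of these 7 neighbours had a fold above 4 and 2 had a negative one. Apoh overlaps Prkca on the opposite strand, and reads of the pair can be told apart only where counting used strand. Whether it did is not given in the sources used here. Ahsg and Fgg overlap the opposite-strand genes Gm30505 and Gm30097, for which no values were used here.

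Other hepatocyte genes were read from lists that were also drawn up with earlier results known, so their counts are descriptions beside the background of 3.10% higher and 1.71% lower at an unadjusted p under 0.05. Of 59 other plasma protein genes, 50 had a positive log2 fold (median 1.47), 29 were higher and 2 lower at that p, and 0 passed an adjusted p under 0.05 in the authors' deposited table. The smallest p-values belonged to Serpina3k (6.39 ± 1.75), Serpinc1, which encodes antithrombin (4.24 ± 1.23), Ambp (2.51 ± 0.73) and Serpina1e (5.56 ± 1.64) in the authors' deposited table. Serpina1e and Serpina3k have close paralogs that may share reads. The 2 lower genes, named after their values were seen, were Serpinf2, which encodes the plasmin inhibitor (-0.87 ± 0.34), and Proc, which encodes protein C (-0.70 ± 0.30), in the authors' deposited table. The genes of highest mean, Apoe (10.65 log2 CPM) and Serpina6 (10.40 log2 CPM), had folds of 0.53 ± 0.34 and -0.76 ± 0.74 in the authors' deposited table. Serpina6 (corticosteroid-binding globulin) and Apoe, like the fibrinogen chains and Ttr, thus combined a clear level in Pkd2-KO with a fold of no more than about 1.

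Hepatocyte genes whose products are not secreted also had mostly positive folds. Of 38 hepatocyte enzymes and transporters, 34 had a positive log2 fold (median 3.08), 25 were higher and 0 lower at an unadjusted p under 0.05 in the authors' deposited table. Bhmt, a methyltransferase of betaine and homocysteine metabolism, was the 1 gene to pass (4.90 ± 1.16, adjusted p = 0.0235) in the authors' deposited table. Slc10a1, the bile acid importer of hepatocytes, had 4.28 ± 1.21, Rdh7 3.67 ± 1.12 and Tdo2, the first enzyme of tryptophan breakdown, 6.15 ± 1.90 in the authors' deposited table. Cyp2e1 (7.70 log2 CPM) and Aldh1l1 (8.35 log2 CPM), the members of this list with the highest means, had -0.24 ± 0.46 and 0.19 ± 0.30 in the authors' deposited table. The hepatocyte marker Cps1, the first enzyme of the urea cycle, had 4.42 ± 1.56 at 2.34 log2 CPM in the authors' deposited table.

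Transcription factors of hepatocytes were mostly near 0. Of 17, 9 had positive and 8 negative folds (median 0.22), 2 were higher and 1 lower at an unadjusted p under 0.05, and 0 passed after adjustment in the authors' deposited table. Hnf4a (8.93 log2 CPM), which is also a tubule factor, had -0.51 ± 0.32 in the authors' deposited table. The 3 with the smallest p-values were Nr1i3 (1.40 ± 0.66), Nr1h4, the bile acid receptor (-0.58 ± 0.28), and Foxa2 (2.37 ± 1.18 at -3.67 log2 CPM) in the authors' deposited table.

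Genes of liver macrophages and sinusoids were positive in 11 of 11 cases, with a median log2 fold of 1.81 and 7 higher at an unadjusted p under 0.05 in the authors' deposited table. Marco, a scavenger receptor of macrophages in liver, spleen and elsewhere, was the 1 to pass (5.99 ± 1.01, adjusted p = 1.27e-05) in the authors' deposited table. Clec4f, a receptor of liver macrophages, had 6.17 ± 2.05 at -2.58 log2 CPM, Fcna 1.47 ± 0.63, Vsig4 1.81 ± 0.78 and Stab2, a receptor of sinusoidal endothelium, 1.54 ± 0.81 in the authors' deposited table. The implied CPM summed over the list was 10.8 in Pkd2-KO and 34.7 in Pkd2-miR-214-KO.

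Among markers of other sources, those of adrenal and blood had mostly positive folds. Those of pancreas (4 of 10 positive) and of muscle and fat (3 of 11 positive), given under other observations, did not. Of 12 adrenal genes, 11 had a positive log2 fold (median 2.24), 4 were higher at an unadjusted p under 0.05, and Dbh passed (5.27 ± 1.31, adjusted p = 0.0475) in the authors' deposited table. The implied CPM summed over the adrenal list was 5.75 in Pkd2-KO and 14.7 in Pkd2-miR-214-KO, with Th (6.05 ± 1.63) and Cyp11b2 (6.83 ± 2.31) at means below -2 log2 CPM in the authors' deposited table. Of 8 blood genes, 8 were positive (median 1.42), 2 were higher at an unadjusted p under 0.05, and Hbb-bt had 2.03 ± 0.87 in the authors' deposited table. The implied CPM summed over the blood list was 367.9 in Pkd2-KO and 1038 in Pkd2-miR-214-KO. Hba-a1 and Hba-a2 had the same mean (7.19 log2 CPM) and fold (1.42), so the counts and sum of this list may hold the same reads more than once. The platelet genes of the list had smaller folds, Pf4 0.68 ± 0.40, Gp9 0.62 ± 1.09 and Ppbp 0.14 ± 0.60. Xist, the RNA of the inactive X chromosome in female cells, had 10.21 ± 2.36 (adjusted p = 0.0168) at a mean of 9.02 log2 CPM in the authors' deposited table. The labels give no sex, but the groups thus appear to differ in the sex of at least some animals. How many animals were of each sex is not shown, and sex and genotype cannot be told apart in these folds. The part of adrenal tissue, blood, liver tissue or sex in the folds of the plasma protein genes was not tested.

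Kidney segment genes were abundant, with means of 11.40 log2 CPM for Umod and 11.29 log2 CPM for Slc34a1 in the authors' deposited table. Of 16 genes of kidney segments, 7 had positive and 9 negative folds (median -0.23), and 0 were past an unadjusted p under 0.05 in either direction in the authors' deposited table. Of 8 tubular protein uptake genes, 2 had positive and 6 negative folds (median -0.19). Lrp2, which encodes megalin, had -0.54 ± 0.44, Cubn, which encodes cubilin, -0.34 ± 0.31, and their partner Amn -0.83 ± 0.41 (p = 0.0431, adjusted p = 1) in the authors' deposited table.

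Acute-phase signalling genes were read as receptors, messengers and secreted products. Of 17, 15 were positive (median 0.18) and 5 were higher at an unadjusted p under 0.05 in the authors' deposited table. Orm2, which encodes orosomucoid and has close paralogs, passed (4.32 ± 0.95, adjusted p = 0.00815), while Lbp, the endotoxin-binding protein, had 0.90 ± 0.26, Crp 2.46 ± 0.87 and Apcs 4.70 ± 1.73 in the authors' deposited table. The interleukin-6 coreceptor gene Il6st had -0.14 ± 0.25, Stat3 0.01 ± 0.20, Socs3 0.15 ± 0.27 and Il6 -0.16 ± 0.57 in the authors' deposited table. Fibrinogen chains are classical targets of this pathway in liver. Their folds near 1 lay above those of Il6st, Stat3, Socs3 and Il6, and close to those of Lbp and Lcn2 (0.75 ± 0.39). They were below those of Orm2, Crp and Apcs, but the approximate intervals of Crp and Apcs overlap theirs. The interval of Orm2 (2.45 to 6.19) overlaps that of Fgb, which reaches 2.51, but not those of Fga and Fgg. These differences were not tested.

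**Figure D5:**
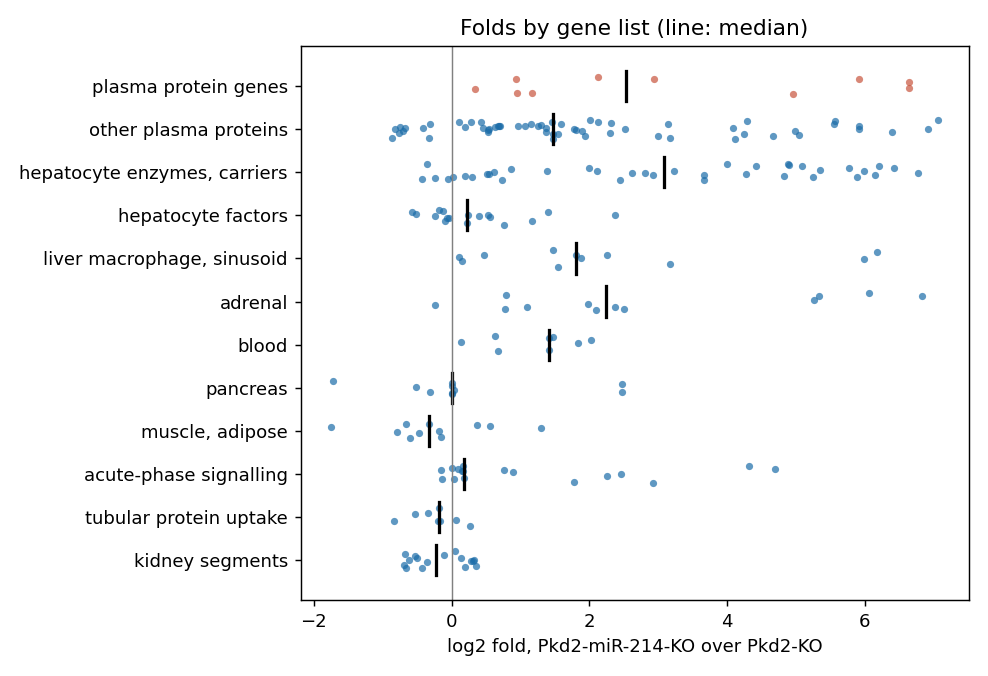
Log2 fold in the authors' deposited table (x axis) of each gene of the plasma protein set (red) and of 11 other lists (blue), with a black line at each list's median. The medians are 2.53 for the plasma protein genes, 3.08 for hepatocyte enzymes and carriers, 1.47 for other plasma proteins, 0.22 for hepatocyte factors and -0.23 for kidney segments.

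The genes most like Alb were sought by log2 fold and approximate SE together, as the distance in units of the SD of each over the 16191 genes with a mean of at least -2 log2 CPM. The nearest 5 were Ces3a (distance 0.0843), Cyp1a2 (0.345), Ahsg (0.376), Ugt2b36 (0.415) and Slco1b2 (0.843). Their log2 folds were 6.68 ± 2.04, 6.76 ± 2.10, 6.64 ± 1.98, 6.43 ± 2.01 and 6.21 ± 2.12 in the authors' deposited table. In the same order their means were -1.73, -1.41, 4.63, -1.04 and 0.43 log2 CPM, against 7.11 for Alb. The approximate SE is poor for low counts, so the likeness of all but Ahsg is less certain. Cyp1a2 is a cytochrome P450 and Slco1b2 an organic anion importer of hepatocytes. This likeness rests on 2 fitted numbers from the same 6 libraries and not on a pattern over animals.

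Seed matches to miR-214, the microRNA that the second genotype lacks, were searched in 3′ UTRs, 1 per member, the longest in GENCODE M21. The mature forms from RefSeq (GRCm38.p6, chromosome 1, plus strand) are shown with the seed, bases 2 to 8, in capitals.
mmu-miR-214-3p, chr1:162223438-162223459: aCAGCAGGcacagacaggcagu
mmu-miR-214-5p, chr1:162223397-162223418: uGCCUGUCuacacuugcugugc
The match to the 3p seed, CCTGCTG, occurred once in Apoc3 (290 bases of UTR) and once in Fgb (2262 bases) and in none of the other 8 members, against 21.3% of 16900 genes with a 3′ UTR. The match to the 5p seed, GACAGGC, occurred in 0 of the 10, against 9.40% of genes. Alb, Ahsg, Apoa1 and Apoh, the members with the largest folds, had neither match in UTRs of 64 to 374 bases. The shares over all genes were not matched for UTR length, and a short UTR rarely holds a given match. Targeting was therefore not tested by these counts. Shorter matches, coding sequence and other transcripts were not searched.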

How the data were processed

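RNA from 6 kidneys was sequenced, 3 of each genotype. TopHat2 2.0.12, edgeR and mm10 are named, without settings, by the submitters' processing notes. The labels' protocols name a stranded total RNA kit, and the series text polyA selection. Per the file headers, the authors deposited for each of 20138 genes a log2 fold, a mean log2 CPM, a likelihood ratio score, the p-value and its adjusted form. The score's chi-square tail on 1 degree of freedom gave every deposited p-value within 6.25e-15, and Benjamini-Hochberg adjustment gave every adjusted p within 5.1e-14. The sources used here give no filters, normalization factors or counting settings. Single libraries were not analysed here, so the depth and its precision are unknown and no test on counts was run.

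The 10 members and all lists were chosen with earlier results of these data known. Approximate SEs, 95% intervals, implied levels and ranks among the 500 genes nearest in mean expression were computed from the table. Checks of the code on simulated data covered the arithmetic of SEs, levels and adjustment, and the motif search. They did not cover the ranks or whether the assumptions behind the SEs and levels hold for these data. Named genes were the members, up to 4 genes per list with the smallest p, those with an adjusted p under 0.05, the 2 of highest mean, the 5 nearest to Alb and 2 flanking genes per side. Cps1, Stat3, Socs3, Il6, Serpinf2, Proc, Adipoq and Xist were added after their values were seen, and some genes of the rule are given in counts only or not reported here. Positions and lengths came from GENCODE M21, and upstream and microRNA sequences from RefSeq (GRCm38.p6). Alternatives were other sets of genes for adjustment, thresholds, centring, splits of the mean and transcript lengths. The code ran on Python 3.11.15 with numpy 2.4.6, pandas 2.3.3, matplotlib 3.10.9 and scipy 1.17.1.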

Additional observations from a re-analysis of the deposited data

How the results depend on the processing

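The number of members past an adjusted p under 0.05 was 0, and it was also 0 with adjustment over genes with a mean log2 CPM of at least 0 or at least 1. With a threshold of 0.25 it was 5, but the share of all genes under that threshold was not counted. Of these 5, Alb had the largest p-value, with rank 105 among the 20138 genes. With an unadjusted p under 0.05, an alternative chosen after seeing the data, it was 8, against 4.82% of all genes in both directions. All 10 folds stayed positive after centring on the median of all genes or of genes with a mean log2 CPM of at least 1, and the median fold of 2.53 stayed within 0.01. With a geometric mean in place of the arithmetic mean, the median implied level of the members was 7.62 CPM in place of 2.02 CPM in Pkd2-KO, and 70.9 CPM in place of 37.7 CPM in Pkd2-miR-214-KO. That alternative moved 5 of the 10 levels in Pkd2-KO by more than 1.5 times, Alb to 13.9 CPM. Subtracting the lowest mean of the table moved 0 of 10, and using the shortest transcript moved 4 of 10 levels per kilobase. No paired analysis was possible because the labels share no animal number between the genotypes and values per library were not analysed here. Without values per library, leaving out replicates and tests on counts were not run. The unknown depth limits what can be said of genes near 0 in Pkd2-KO.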

Other observations

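Genes of the pancreas and of muscle and fat were read in the same way, and their difference from the plasma protein genes was not tested. Of 10 pancreas genes in the table, 4 log2 folds were positive, 3 negative and 3 exactly 0 in the authors' deposited table, and 0 were past an unadjusted p under 0.05. Cela2a and Pnlip had 2.48 ± 1.55 each and Clps -1.72 (interval -4.66 to 1.21), at means near the lowest of the table, while Cela1 had -0.32 ± 0.39 at 5.63 log2 CPM in the authors' deposited table. The other 9 pancreas genes had means from -4.19 to -2.67 log2 CPM in the authors' deposited table, so the list says little. Of 11 muscle and fat genes, 3 were positive and 8 negative (median -0.32), and 1 was higher at an unadjusted p under 0.05, the muscle actin gene Acta1 (1.30 ± 0.59, adjusted p = 0.861) in the authors' deposited table. Brown fat Ucp1 had -1.75 ± 1.39, and the fat genes Plin1 and Adipoq had intervals of -3.42 to 1.83 and -2.57 to 2.27 in the authors' deposited table, and 0 of the muscle and fat genes passed after adjustment.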
